A study of Mus musculus with 64 samples.

Results

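The genes of oxidative phosphorylation were followed in the nucleus accumbens (NAc) and prefrontal cortex (PFCx) of mice given a psychotropic drug or saline. They were taken by name: nuclear genes beginning with Nduf (followed by a, b, c, s or v), Uqcr, Cox4 to Cox8 or Atp5, the genes Sdha to Sdhd, and the protein-coding mt-Nd, mt-Co, mt-Atp and mt-Cytb genes of the mitochondrial genome. This gave 108 of the 46785 genes, 95 nuclear genes with 369 annotated transcripts and 13 mitochondrial genes, and 107 passed the filter on low values, a mean of 0.1 FPKM or more in one of the tissues. FPKM is the number of fragments divided by transcript length and by library size, so levels of different genes can be compared, and the FPKM of the transcripts of a gene were added up. By role, the nuclear genes held 7 core and 31 accessory subunits of complex I with 7 of its assembly factors (Ndufaf), 4 genes of complex II, 8 of complex III, 17 of complex IV, 15 of complex V, 2 genes grouped as related factors of the ATP synthase and 4 genes with pseudogene names. Those 2, Atp5s and Atp5sl, were grouped by name only, and RefSeq lists them as Dmac2l and Dmac2. The 31 include Ndufa4 and Ndufa4l2, grouped there by name, although Ndufa4 is now assigned to complex IV. The complex IV gene Cox8c was the 1 member that did not pass. The rule also takes Cox4i1 and Ndufb1, which were not analysed here.

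All animals were C57BL/6N males of 8 to 10 weeks that got 1 intraperitoneal injection and were killed 2 h later. The antipsychotics haloperidol (1 mg/kg) and risperidone (0.5 mg/kg) were dissolved in saline to which a drop of HCl was added, and methamphetamine (2 mg/kg), the antidepressants mianserin (20 mg/kg) and venlafaxine (16 mg/kg), and ketamine (20 mg/kg) in saline alone. There were 64 libraries of RNA depleted of ribosomal RNA, with 4 for each drug and tissue and 8 for saline, 4 labelled SALI (set I) and 4 SALII (set II). The labels do not say whether the tissues came from the same mice, so p-values measure the spread between these samples. Tissue was dissected whole, so fewer cells of a type and less RNA per cell cannot be told apart.

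In oxidative phosphorylation, complexes I and II pass electrons from NADH and succinate to ubiquinone, complex III passes them to cytochrome c and complex IV to oxygen. The protons pumped by complexes I, III and IV drive the ATP synthase, complex V. Complexes I, III, IV and V are built from subunits of both genomes, and complex II from nuclear subunits alone. Neurons draw much of their ATP from this pathway, and several complex IV subunits have a counterpart that is used mainly in heart and skeletal muscle or in testis.

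The aligned bases behind a library, estimated from coverage and FPKM, had a median of 2.39 gigabases and lay between 1.52 and 3.26. After haloperidol, risperidone, methamphetamine or saline of set I, NAc libraries listed 85287 to 87827 transcripts above 0. After ketamine, mianserin, venlafaxine or saline of set II they listed 107099 to 110556, and the 32 PFCx libraries listed 108556 to 110852. The first 4 treatments are called sample set I and the last 4 sample set II, a division of the drugs read from these numbers in the NAc and not from the labels, so that each drug lay in a single set. In saline, all 10 markers of striatal spiny neurons were higher in the NAc and all 10 of cortical projection neurons were higher in the PFCx (limma, Benjamini-Hochberg adjusted p under 0.05), as the tissue labels say.

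Part of the mitochondrial signal could not be told from nuclear DNA by sequence. A run of annotated pseudogenes on mouse chromosome 1 (GRCm38, chr1:24611535-24616197) repeats mitochondrial DNA, and for 7 of the 13 mitochondrial genes it held a copy with at least 99% identity. The copies of mt-Co2 (Gm28661), mt-Co3 (Gm28437), mt-Atp6 (Gm10925), mt-Nd4l (Gm10222) and mt-Nd4 (Gm28439) had no mismatch over the aligned bases. The deposited tables list each copy with a level of its own. Over all libraries the FPKM of the copy was 99.5% of that of mt-Co2, 101% of that of mt-Co3, 91.5% of that of mt-Atp6, 84.1% of that of mt-Nd4l and 56.4% of that of mt-Nd4. The copy of mt-Nd3 (Gm28438) stood at 71.7% and the partial copy of mt-Co1 (Gm29216, 483 aligned bases of 1545) at 60.3%, each with a single mismatch. The stretches around these mismatches are shown because they hold the letters that separate the copies. Capitals mark the differing base, A1066T in mt-Co1 (chrM:6390-6438, + strand) and T3C in mt-Nd3 (chrM:9459-9506, + strand), with the mitochondrial base first and positions counted from 1 at the start of the mitochondrial transcript. The sequences are those of the GENCODE vM21 transcripts of GRCm38.
mt-Co1: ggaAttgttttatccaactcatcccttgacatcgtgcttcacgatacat
Gm29216: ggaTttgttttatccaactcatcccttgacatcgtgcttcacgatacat
mt-Nd3: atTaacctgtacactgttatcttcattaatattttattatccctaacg
Gm28438: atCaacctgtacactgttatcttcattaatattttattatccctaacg
With the FPKM of the copies added to the mitochondrial genes, scaled by length, no count of mitochondrial genes called between tissues or saline sets changed. The genes mt-Atp8, mt-Atp6 and mt-Co3, mt-Nd4l and mt-Nd4, and mt-Nd5 and mt-Nd6 overlap or abut on the mitochondrial genome, so their separate values are uncertain.

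The highest levels were those of mitochondrial genes, but the range was wide and mt-Nd6 averaged 67.2 FPKM over both tissues, below the highest nuclear genes. The subunit of complex IV mt-Co1, which holds its catalytic centre, averaged 1874 FPKM in NAc and 1696 in PFCx libraries, and mt-Co3 931 and 812. The highest nuclear gene was Atp5b, the catalytic beta subunit of the ATP synthase, at 259.8 FPKM in the NAc and 239 in the PFCx, followed by Atp5a1 at 121 and 115. Only Cox8a and Cox6a1 of the other nuclear genes averaged at least 50 FPKM. Of the 95 nuclear genes 60 averaged at least 10 FPKM and 9 under 1. Among these 9 were the muscle or testis counterparts Cox6a2 (0.650 FPKM in the NAc, 0.434 in the PFCx), Cox7a1 (0.372 and 0.462), Cox8b (0.112 and 0.152), Cox6b2 (0.50 and 0.70) and Cox7b2 (0.194 and 0.292), together with Cox4i2 and Ndufa4l2. Their common counterparts stood higher, Cox6a1 at 67.3 FPKM in NAc and 64.6 in PFCx libraries and Cox8a at 67.0 and 73.1.

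The first comparison asked how the NAc and PFCx differ in saline-treated mice, with the difference taken within each saline set and averaged. On the log2(FPKM + 1) scale, 10 of the 13 mitochondrial genes were higher in the NAc and 0 lower, with a median difference of 0.21. Of the 94 nuclear genes tested, 9 were higher, 15 lower and 70 not called, with a median of -0.03. Over all 37034 genes tested, 8.89% were called higher and 36% lower, 44.9% in all, with a median of -0.10. These include many low genes, and NAc libraries of set I listed fewer transcripts above 0 than all others. How far this enters the shares over all genes that involve those libraries, here and below, was not tested. The nuclear split depended on how libraries are scaled, with 19 higher and 5 lower when the 75th percentile over a fixed set of genes was equalised, 40 and 1 when the sum of FPKM outside the mitochondrial genes was equalised, and 0 and 71 with the 75th percentile over each library's genes above 0. The mitochondrial genes were higher in 12 and 13 cases under the first 2 of these and lower in 8 under the third, whose factors for NAc libraries of set I lay at 0.481 to 0.541 since it counts only genes above 0.

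**Figure D1:**
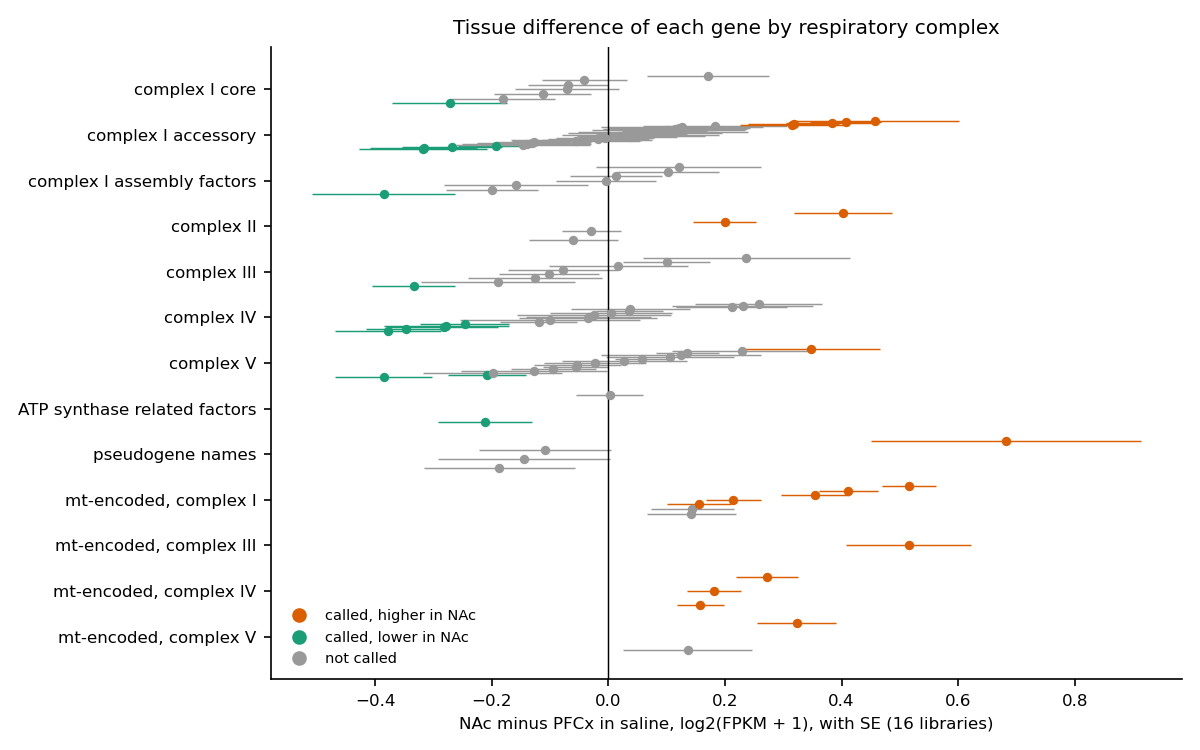
Difference between the NAc and PFCx in saline (NAc minus PFCx, log2(FPKM + 1), x axis) for each gene with its SE, by respiratory complex (y axis), from 16 libraries. Orange and green points were called, grey ones not; the 13 mitochondrially encoded (mt-encoded) genes all lie to the right of 0, while nuclear genes of complexes I, III, IV and V lie on both sides.

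Genes that encode complex I subunits on the mitochondrial genome gave the clearest separation. For mt-Nd4l the 8 NAc libraries ranged from 95.1 to 114 FPKM with a median of 106, and the 8 PFCx libraries from 67.9 to 79.0 with a median of 72.2. The libraries did not overlap, and the difference was 0.52 ± 0.05 (SE, limma, adjusted p = 5.96e-07). For mt-Nd4 the NAc libraries ranged from 154 to 195 FPKM with a median of 177 and the PFCx libraries from 121 to 146 with a median of 133. These did not overlap either, with a difference of 0.41 ± 0.05 (SE, limma, adjusted p = 1.57e-05). Non-overlap, in either direction, was seen for 8.5% of all genes tested, for these 2 of the 13 mitochondrial genes and for 0 of the 94 nuclear genes.

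The other mitochondrial complex I genes differed less. For mt-Nd2 the NAc libraries ranged from 139 to 196 FPKM and the PFCx libraries from 114 to 155 (difference 0.35 ± 0.06 SE, limma adjusted p = 0.000247). For mt-Nd1 the ranges were 428 to 548 and 387 to 487 FPKM (0.21 ± 0.05 SE, adjusted p = 0.00254), with 0.07 in set I (adjusted p = 0.485) and 0.36 in set II, and for mt-Nd5 108 to 134 and 95.2 to 129 (0.16 ± 0.06 SE, adjusted p = 0.0323). Single libraries decided mt-Nd5, which lost its call when any of 7 libraries was left out. The gene mt-Nd3 was not called (0.14, adjusted p = 0.111), with -0.06 in set I and 0.35 in set II. Nor was mt-Nd6, the one protein gene on the other DNA strand (0.14, adjusted p = 0.144), with 0.43 in set I (adjusted p = 0.0245) and -0.15 in set II. For mt-Cytb, the mitochondrial subunit of complex III, the NAc ranged from 286 to 442 FPKM and the PFCx from 224 to 336, with a difference of 0.52 ± 0.11 (SE, adjusted p = 0.0015). It was of the same size within set I (0.51) and within set II (0.52).

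In complex IV all 3 mitochondrial subunits were called higher in the NAc, and their difference was larger in set II than in set I by the values given next. For mt-Co3 the averaged difference was 0.27 ± 0.05 (SE, limma adjusted p = 0.000908), made of -0.07 in set I and 0.61 in set II. For mt-Co1 it was 0.16 ± 0.04 (adjusted p = 0.00557), with 0.01 in set I and 0.31 in set II, and for mt-Co2 0.18 ± 0.05 (adjusted p = 0.00657), with 0.04 and 0.32. The test of set II against set I in these differences is given with the saline sets. In complex V mt-Atp6, part of the proton channel, was higher by 0.32 ± 0.07 (SE, adjusted p = 0.00161), with 0.32 in set I and 0.33 in set II, and mt-Atp8 was not called (0.14, adjusted p = 0.329). Within set I alone 5 of the 13 mitochondrial genes were called, beside 35.3% of all genes tested. Within set II 9 were called, beside 20.8% of all genes, and 4 were called in both sets.

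Nuclear genes of the same complexes went both ways. Of complex II, Sdhc, a membrane anchor, ranged from 7.86 to 15.5 FPKM in the NAc and from 5.35 to 11.5 in the PFCx, a difference of 0.40 ± 0.08 (SE, limma adjusted p = 0.00163), and the other anchor Sdhd differed by 0.20 ± 0.05 (adjusted p = 0.00842). The catalytic subunits Sdha (-0.03, adjusted p = 0.653) and Sdhb (-0.06, adjusted p = 0.543) were not called. Of the 29 accessory subunits of complex I other than Ndufa4 and Ndufa4l2, 5 were higher in the NAc and 4 lower. In complex IV 5 of 16 were lower and 0 higher, in complex V 1 higher and 2 lower of 15, and in complex III 1 of 8 lower. With an FPKM of 24.3 to 32.9 in the NAc and 27.2 to 38.3 in the PFCx, the called gene of complex III was Uqcrc2, a core protein (-0.33 ± 0.07 SE, adjusted p = 0.00184). It was named, like those next, after its values were seen.

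Accessory subunits of complex I gave the largest differences among nuclear subunits that were higher in the NAc. For Ndufa1 the difference was 0.46 ± 0.14 (SE, limma adjusted p = 0.0191), and for Ndufb10 0.41 ± 0.06 (adjusted p = 0.000113), 0.20 in set I and 0.61 in set II. On the other side stood Atp5c1, the gamma subunit that forms the rotor stalk of the ATP synthase (-0.39 ± 0.08, adjusted p = 0.00203), Cox7b (-0.38 ± 0.09, adjusted p = 0.00429) and the assembly factor Ndufaf6 (-0.39 ± 0.12, adjusted p = 0.0199). For none of the 94 nuclear genes was the difference called within set I and, in the same direction, within set II.

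Among genes with counterparts, Cox6b2, at 0.264 to 0.629 FPKM in the NAc and 0.284 to 1.59 in the PFCx, was lower in the NAc (-0.28 ± 0.09 SE, limma adjusted p = 0.0242), with -0.54 in set I and -0.03 in set II, and its common counterpart Cox6b1 was not called (-0.03, adjusted p = 0.828). Cox7b2 (-0.35, adjusted p = 0.00115), listed at 0 in all NAc libraries of set I, and its counterpart Cox7b were both lower in the NAc. The pairs Cox6a1 (0.23, adjusted p = 0.131) and Cox6a2 (0.26, adjusted p = 0.0672), Cox7a1 (-0.10) and Cox7a2 (-0.03), Cox8a (0.00) and Cox8b (0.04), and Ndufa4 (-0.06) and Ndufa4l2 (-0.01) were not called, nor were Cox7a2l (-0.12) and Cox4i2 (0.04). The genes Atp5g1 (-0.05), Atp5g2 (0.11) and Atp5g3 (-0.06) encode the same mature c subunit of the ATP synthase ring and were not called either. Their order was shared by both tissues, Atp5g3 with a median of 43.3 FPKM in the NAc and 43.1 in the PFCx above Atp5g1 (16.1 and 15.6) and Atp5g2 (9.84 and 9.48). The NAc ranges of Atp5g1 (11.7 to 22.4) and Atp5g2 (8.67 to 16.9) overlapped.

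Other metabolic lists and cell markers were compared in the same way. Of 16 glycolysis genes 9 were lower in the NAc and 1 higher (median -0.27), and of 17 genes of the tricarboxylic acid cycle 5 were lower and 1 higher (median -0.10), beside 36% lower, 8.89% higher and a median of -0.10 over all genes. Of 81 tested genes for cytosolic ribosomal proteins 24 were higher in the NAc and 5 lower (median 0.20). Of 22 mitochondrial tRNAs 16 were lower and 0 higher (median -1.12), and of 2 mitochondrial rRNAs 1 was higher and 0 lower (median 0.29). All 8 oligodendrocyte markers were higher in the NAc (median 1.83), with summed FPKM of 602 to 826 there against 153 to 212 in the PFCx and none of the 8 at 0. The part of these cells in the mitochondrial difference was not tested.

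The second comparison set saline set II against saline set I. Both are labelled saline, and the labels do not say whether either held the drop of HCl. The comparison measures what separates the sample sets, which may include the vehicle. Of the nuclear genes 51 of 94 were not called in each tissue, and those called were lower in set II with 2 exceptions. In the NAc 43 of 94 nuclear genes were lower and 0 higher, with a median of -0.33 on the log2(FPKM + 1) scale. In the PFCx 41 were lower and 2 higher, also with a median of -0.33. Over all genes tested, 3.88% were called lower in the NAc and 9.56% higher (13.4% in all, median 0.08), and in the PFCx 4.94% lower and 4.18% higher (9.12% in all, median -0.01). The count in both tissues was 33, which is 76.7% of the NAc list and 80.5% of the PFCx list. Over all genes 686 were lower in both, 47.7% of the NAc and 37.5% of the PFCx list. With the 75th percentile over genes above 0 equalised, the NAc direction turned, to 60 higher and 2 lower, and under the other scalings 36 or 43 were lower with 1 or 0 higher. Without overlap of the 4 and 4 libraries, 50 nuclear genes were lower in the NAc (5.71% of all genes) and 41 in the PFCx (6.83% of all genes).

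**Figure D2:**
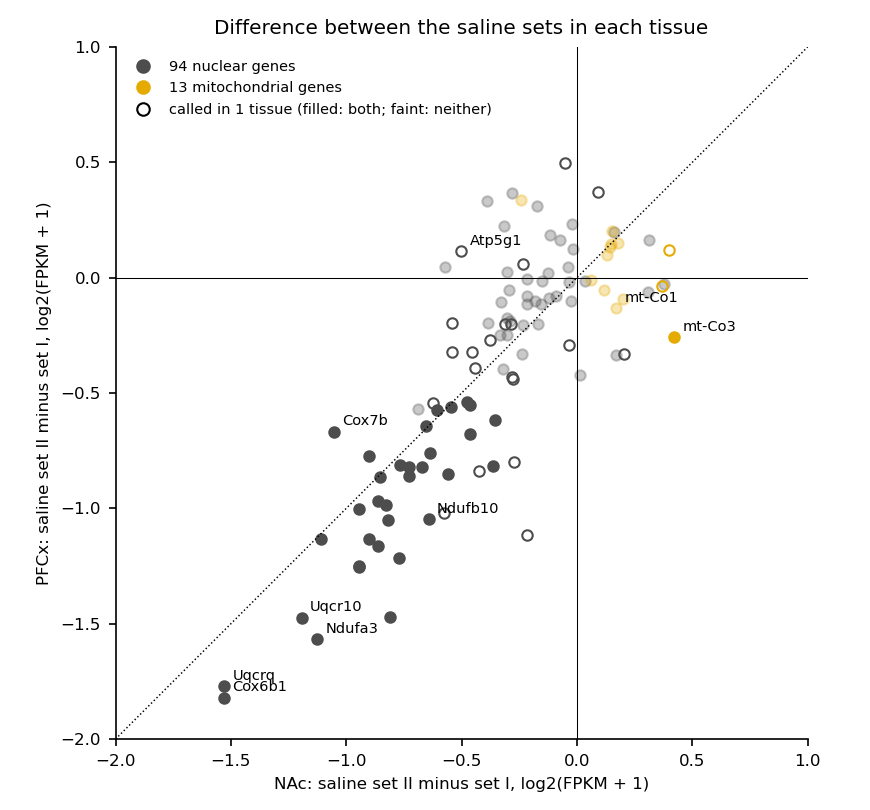
Saline set II minus saline set I, log2(FPKM + 1), in the NAc (x axis) and PFCx (y axis) for 94 nuclear and 13 mitochondrial genes. Nuclear genes called in both tissues (filled) lie in the lower left, with Cox6b1 and Uqcrq lowest, and mt-Co3 lies right of and below 0.

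Genes with the lowest adjusted p are given here, with Ndufa3, the lowest of the nuclear genes, after Cox6b1 and Uqcrq. For Cox6b1, which lies at the interface of the complex IV dimer (chr7:30616974-30626151, GRCm38), NAc libraries held 23.9, 18.7, 23.0 and 30.2 FPKM in set I and 6.10, 7.32, 8.04 and 8.83 in set II. In the PFCx they held 29.9, 28.1, 24.7 and 25.2 in set I and 8.50, 9.08, 5.45 and 5.28 in set II. In each tissue all set II libraries lay below all set I libraries, with differences of -1.53 ± 0.17 in the NAc (SE, limma adjusted p = 0.000104) and -1.82 ± 0.17 in the PFCx (adjusted p = 1.31e-05). For Uqcrq, a subunit of complex III at chr11:53427922-53430831, NAc values were 25.7, 26.2, 32.5 and 26.8 in set I and 8.87, 6.30, 9.76 and 11.6 in set II. In the PFCx they were 33.9, 29.1, 29.6 and 27.2 in set I and 9.67, 10.4, 6.39 and 6.40 in set II. These groups did not overlap either, with differences of -1.53 ± 0.17 (limma adjusted p = 0.000106) and -1.77 ± 0.17 (adjusted p = 1.68e-05).

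The accessory complex I subunit Ndufa3 (chr7:3617373-3620327) held 15.8, 17.3, 20.3 and 19.3 FPKM in NAc set I and 9.85, 7.48, 6.83 and 7.14 in set II. PFCx values were 15.5, 15.4, 15.4 and 17.9 in set I and 5.43, 5.27, 4.03 and 4.43 in set II. It had the lowest adjusted p of the nuclear genes in both tissues, at -1.13 ± 0.11 in the NAc (SE, limma adjusted p = 3.84e-05) and -1.57 ± 0.11 in the PFCx (adjusted p = 1.08e-06). Of the genes next in order, Ndufb10, another accessory subunit, fell from a mean of 46.3 ± 1.86 to 29.5 ± 4.49 FPKM in the NAc (SD, n = 4 each) and from 40.1 ± 3.53 to 18.8 ± 0.734 in the PFCx. Cox7b, a small subunit of complex IV, fell from 39.2 ± 2.47 to 18.6 ± 3.24 FPKM in the NAc and from 45.1 ± 7.68 to 27.9 ± 3.01 in the PFCx (SD, n = 4 each). Uqcr10 of complex III fell from 21.7 ± 1.95 to 8.92 ± 0.289 FPKM in the NAc and from 26.5 ± 4.56 to 9.09 ± 2.54 in the PFCx (SD, n = 4 each).

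By complex, 18 of the 29 accessory subunits of complex I other than Ndufa4 and Ndufa4l2 were lower in set II in the NAc and 18 in the PFCx, with medians of -0.54 and -0.76, beside 2 and 1 of its 7 core subunits. In complex II 3 of 4 were lower in each tissue, in complex III 4 and 3 of 8, in complex IV 6 and 8 of 16, in complex V 7 and 4 of 15, and among the complex I assembly factors 2 of 7 in each. Sdhb, the iron-sulfur subunit of complex II, was lower by 0.65 in the NAc (difference -0.65, limma adjusted p = 0.00227) and by a like amount in the PFCx (-0.64, adjusted p = 0.00162). Sdhc was lower in both (-0.46 and -0.55), Sdha was called in the NAc (-0.29, adjusted p = 0.0197) and Sdhd in the PFCx (-0.29, adjusted p = 0.0251). In the fixed panel Cox6a1 (-0.82 in the NAc, -1.05 in the PFCx), Cox7a2 (-0.77, -1.21), Cox8a (-0.67, -0.82) and Ndufa4 (-0.90, -1.13) were called in both tissues, and Atp5g3 (-0.04, 0.04) and Atp5g2 (-0.28, 0.37) in neither. The 2 nuclear genes called higher in set II, both in the PFCx, were Atp5c1 (0.50, limma adjusted p = 0.0143) and Cox7a2l (0.37, adjusted p = 0.0195).

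Mitochondrial genes differed in another way. In the NAc mt-Co3 held 810, 768, 800 and 887 FPKM in set I and 1059, 1028, 1227 and 1070 in set II, without overlap, and was higher in set II by 0.42 ± 0.07 (SE, limma adjusted p = 0.00329). Higher in set II without overlap in the NAc were 5 mitochondrial genes and 24.2% of all genes tested. In the PFCx these were 0 and 6.45%. The NAc share involves the set I libraries with fewer transcripts above 0. In the PFCx mt-Co3 held 882, 762, 827 and 960 in set I and 686, 728, 729 and 718 in set II, and was lower by 0.26 on the log2 scale (difference -0.26 ± 0.07, adjusted p = 0.0438). This PFCx call was not stable. When 1 saline library was left out, 0 or 1 mitochondrial genes were called between the PFCx sets. With the non-mitochondrial sum or the 75th percentile over fixed genes equalised, 0 were called. The difference between the tissues was itself called for mt-Co3 (0.68, adjusted p = 0.00232) and mt-Co1 (0.30, adjusted p = 0.0497), and for Atp5g1 (-0.62, adjusted p = 0.0366) and Cox7b2 (0.53, adjusted p = 0.048), among 3.77% of all genes tested. In the NAc mt-Co2 (0.40, adjusted p = 0.00228) and mt-Nd3 (0.37, adjusted p = 0.0289) were also higher in set II, and in the PFCx mt-Co3 was the single mitochondrial gene called.

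The nuclear and mitochondrial genes can be read within a library, where scaling cancels, as the ratio of the mitochondrial to the nuclear summed FPKM. The mitochondrial sums leave out the copies on chromosome 1, and the ratios would be higher with them. In saline of sets I and II the mean mitochondrial sum was 5530 and 6496 in the NAc, and 7969 and 9527 with the copies. In the PFCx it was 5181 and 5037, and 7550 and 7267 with the copies. Over all 16 NAc libraries of set I the ratio ranged from 2.11 to 2.74 with a median of 2.47, and over the 16 of set II from 3.60 to 4.88 with a median of 3.97. In the PFCx it ranged from 2.07 to 2.74 in set I and from 2.50 to 3.70 in set II, with medians of 2.28 and 2.97. The sets did not overlap in the NAc and overlapped in the PFCx. In saline of set I the NAc had a ratio of 2.49 ± 0.24 and the PFCx of 2.35 ± 0.24 (SD, n = 4 each), and in set II 3.94 ± 0.26 and 3.00 ± 0.56. The summed FPKM of the nuclear genes did not overlap between sets in either tissue, at 2055 to 2453 in set I and 1358 to 1835 in set II of the NAc, and 2058 to 2297 and 1451 to 1927 in the PFCx.

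**Figure D3:**
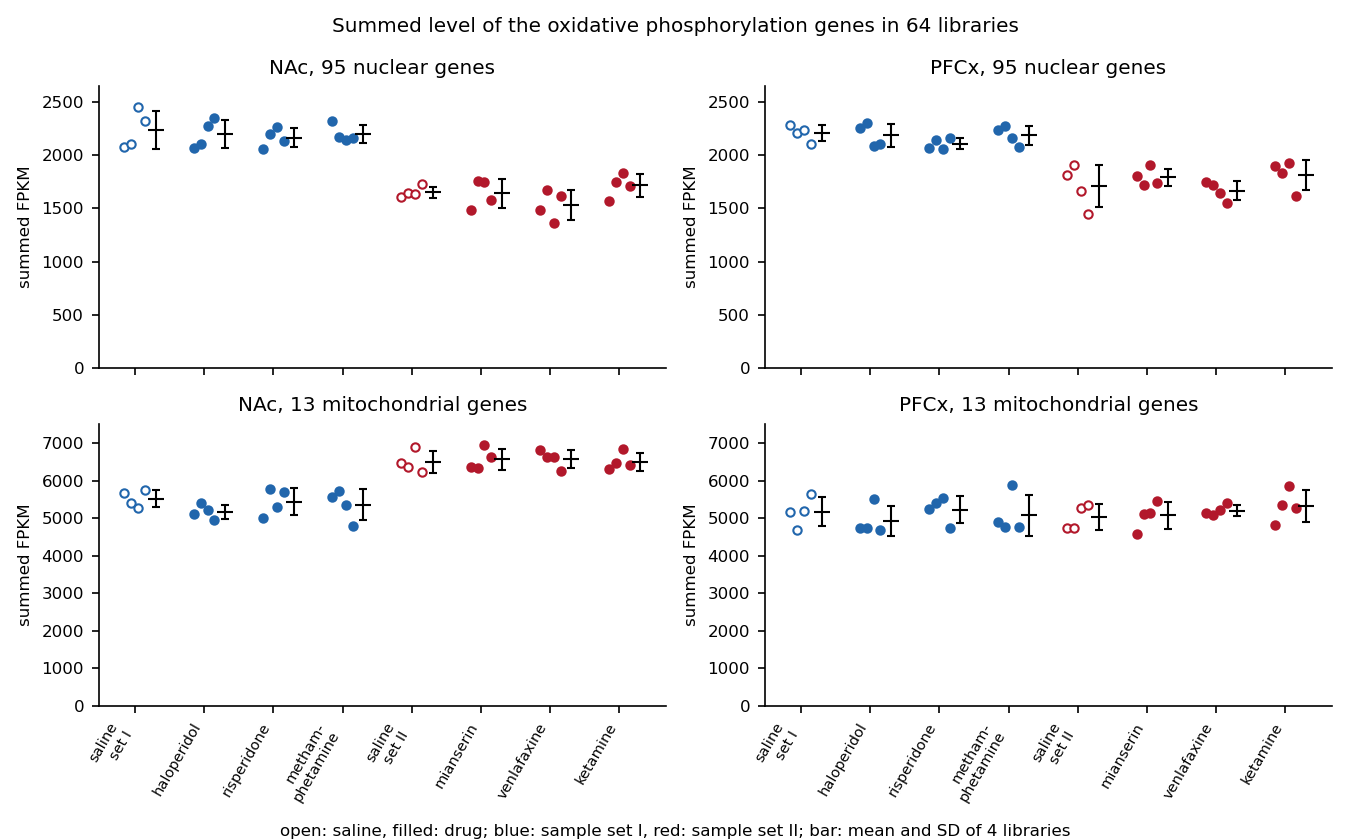
Summed FPKM (y axis, from 0) of the 95 nuclear and 13 mitochondrial genes in each of the 64 libraries, by tissue and treatment (x axis); bars are the mean and SD of 4 libraries, open points saline, blue sample set I and red sample set II. Drug libraries lie with the saline libraries of their own set, the nuclear sums of set II below those of set I in both tissues and the mitochondrial sums above them in the NAc.

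Transcript length, other gene lists and cell markers also varied with the sets. The most abundant transcript of the nuclear genes had a median length of 625 bases, against 2473 for the 7066 genes with a mean of at least 5 FPKM. Of 69 tested genes with such a transcript of at most 1000 bases, 36 were lower in set II in the NAc and 36 in the PFCx, with medians of -0.45 and -0.54, and of the 25 longer ones 7 and 5, with medians of -0.17 and -0.11. Among 365 other genes of 401 to 600 bases the median was -0.24 for the NAc and -0.29 for the PFCx, where 32 nuclear oxidative phosphorylation genes of that length had medians of -0.56 and -0.59. At 601 to 1000 and at 1501 to 3000 bases the medians of the oxidative phosphorylation genes were also the lower ones in both tissues. For 601 to 800 bases they were -0.33 and -0.34, beside -0.17 and -0.21 for other genes. At 201 to 400 bases in the PFCx and at 1001 to 1500 bases in both tissues they were the higher ones. At 201 to 400 bases 191 other genes had medians of -0.21 and -0.57 and 11 nuclear oxidative phosphorylation genes of -0.22 and -0.19, and at 1001 to 1500 bases 563 other genes had -0.17 and -0.17 and 15 nuclear ones -0.05 and -0.01. The 547 other genes of at most 200 bases went the other way, with medians of 0.68 and 0.85. Other genes over 5000 bases had medians of -0.02 and 0.03. Of 81 tested genes for cytosolic ribosomal proteins, also short mRNAs, 42 were lower in the NAc with 4 higher and 46 were lower in the PFCx with 0 higher, with medians of -0.54 and -0.70. The tricarboxylic acid cycle, the pathway that feeds complexes I and II, had 4 of 17 genes lower in the NAc, and 2 lower and 2 higher in the PFCx, with medians of -0.11 and -0.00. Both mitochondrial rRNAs were lower in set II in each tissue, with summed FPKM of 4613 to 5439 (set I 7991 to 10235) in NAc libraries and 2869 to 4226 (set I 7689 to 8933) in PFCx libraries. Of 22 mitochondrial tRNAs 2 were higher and 2 lower in set II in the NAc, and 10 higher and 0 lower in the PFCx (medians -0.06 and 1.00). Of 8 oligodendrocyte markers 5 were lower in set II in the NAc (median -0.33), with summed FPKM of 602 to 666 against 720 to 826 in set I and none at 0, and 1 was lower in the PFCx (median -0.04). The part of length, of these cells and of library preparation in the set difference was not tested.

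**Figure D4:**
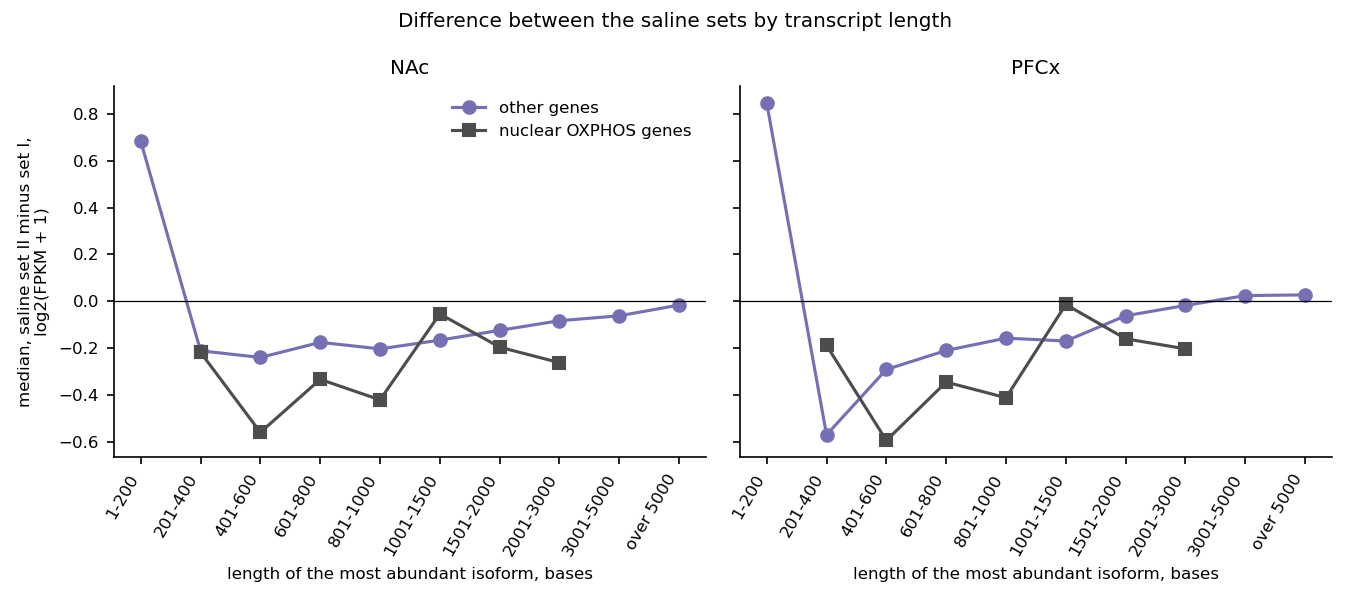
Median difference between saline set II and saline set I (log2(FPKM + 1), y axis) by length of the most abundant transcript in bases (x axis), for nuclear oxidative phosphorylation genes (squares, labelled OXPHOS) and other genes with a mean of at least 5 FPKM (circles), in each tissue. Apart from transcripts of at most 200 bases, with positive medians of 0.68 and 0.85, medians of other genes were lowest at 401 to 600 bases in the NAc and at 201 to 400 in the PFCx and neared 0 for long transcripts; the squares of 801 to 1000 bases and of 1501 bases or more hold 4 to 8 genes each.

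Promoter letters were listed for the nuclear genes as a group, whether called or not. RefSeq promoters (GRCm38.p6, 250 bases before to 50 after the start) were found for 76 of the 95 nuclear genes. The letters GCGCATGCG of NRF1 were held on either strand by 10 of the 76 (13.2%) and by 1.92% of 26949 other genes. The letters CCGGAAG of the ETS family were held by 17 (22.4%) against 9.89%, and AAGATGG of YY1 by 12 (15.8%) against 7.25%. NRF1, the ETS factor GABP and YY1 are known as regulators of respiratory genes. A match is a description of letters. Stretches around matches are shown for 3 genes with counterparts, with the match in capitals, on the minus strand of GRCm38.p6: Cox6b1 (ETS, chr7:30626124-30626153), Cox6a1 (NRF1, chr5:115349101-115349130) and Atp5g2 (NRF1, chr15:102671070-102671099). The first 2 genes were lower in set II in both tissues and Atp5g2 was not called.
Cox6b1: tcctctcgcagCTTCCGGccagtcggaatt
Cox6a1: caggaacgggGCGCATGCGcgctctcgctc
Atp5g2: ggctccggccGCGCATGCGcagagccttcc

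The third comparison set each drug against saline, with all 8 saline libraries of the tissue as control. In the NAc venlafaxine called 10 nuclear genes, all lower, among 1.83% of all genes tested and 0.729% called lower, mianserin 2 members (1.84%), haloperidol 1 (0.721%) and ketamine 1 (1.97%). Risperidone (0.729%) and methamphetamine (0.194%) called 0 of the 107. In the PFCx each of the 6 drugs called 0, with 0.162% of all genes for haloperidol, 0.51% for risperidone, 0.351% for methamphetamine, 0.667% for mianserin, 0.0054% for venlafaxine and 0.0162% for ketamine. At an unadjusted p under 0.05 the nuclear genes numbered 33, 23, 27, 10, 28 and 7 of 94 in the PFCx, in the order haloperidol, risperidone, methamphetamine, mianserin, venlafaxine and ketamine, beside 13.8%, 14.5%, 8.88%, 9.61%, 7.16% and 8.14% of all genes. This control holds libraries of both sample sets, and the drugs of a tissue share it. Against it the median of the nuclear genes was 0.15, 0.14 and 0.18 for haloperidol, risperidone and methamphetamine in the NAc, and -0.21, -0.29 and -0.14 for mianserin, venlafaxine and ketamine. In the PFCx the medians were 0.20, 0.14 and 0.21, and -0.13, -0.21 and -0.06. The sign followed the sample set of the drug in all 12 cases.

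Against the 4 saline libraries of the own sample set the nuclear median lay nearer to 0 in 11 of the 12 cases, and for ketamine in the PFCx it went from -0.06 to 0.12. The nuclear medians ran from -0.12 for venlafaxine to 0.03 for ketamine in the NAc and from -0.06 for risperidone to 0.12 for ketamine in the PFCx. Against this control 0 members were called for any drug in the NAc, where limma called 0.235% of all genes for haloperidol, 0.213% for risperidone, 0.0891% for methamphetamine, 0.273% for mianserin, 0.0081% for venlafaxine and 0.967% for ketamine. The nuclear genes at an unadjusted p under 0.05 were then 7, 2, 2, 1, 11 and 5 of 94 in the same order, beside 6.22%, 6.54%, 6.25%, 7.81%, 5.71% and 10.01% of all genes. In the PFCx they were 1, 5, 1, 14, 13 and 23, beside 5.95%, 6.21%, 5.99%, 13.1%, 9.45% and 13.04% of all genes, with 0.0216% of all genes called for haloperidol, 0.162% for risperidone, 0.159% for methamphetamine and 0.74% for venlafaxine, and 0 members for each of these 4.

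**Figure D5:**
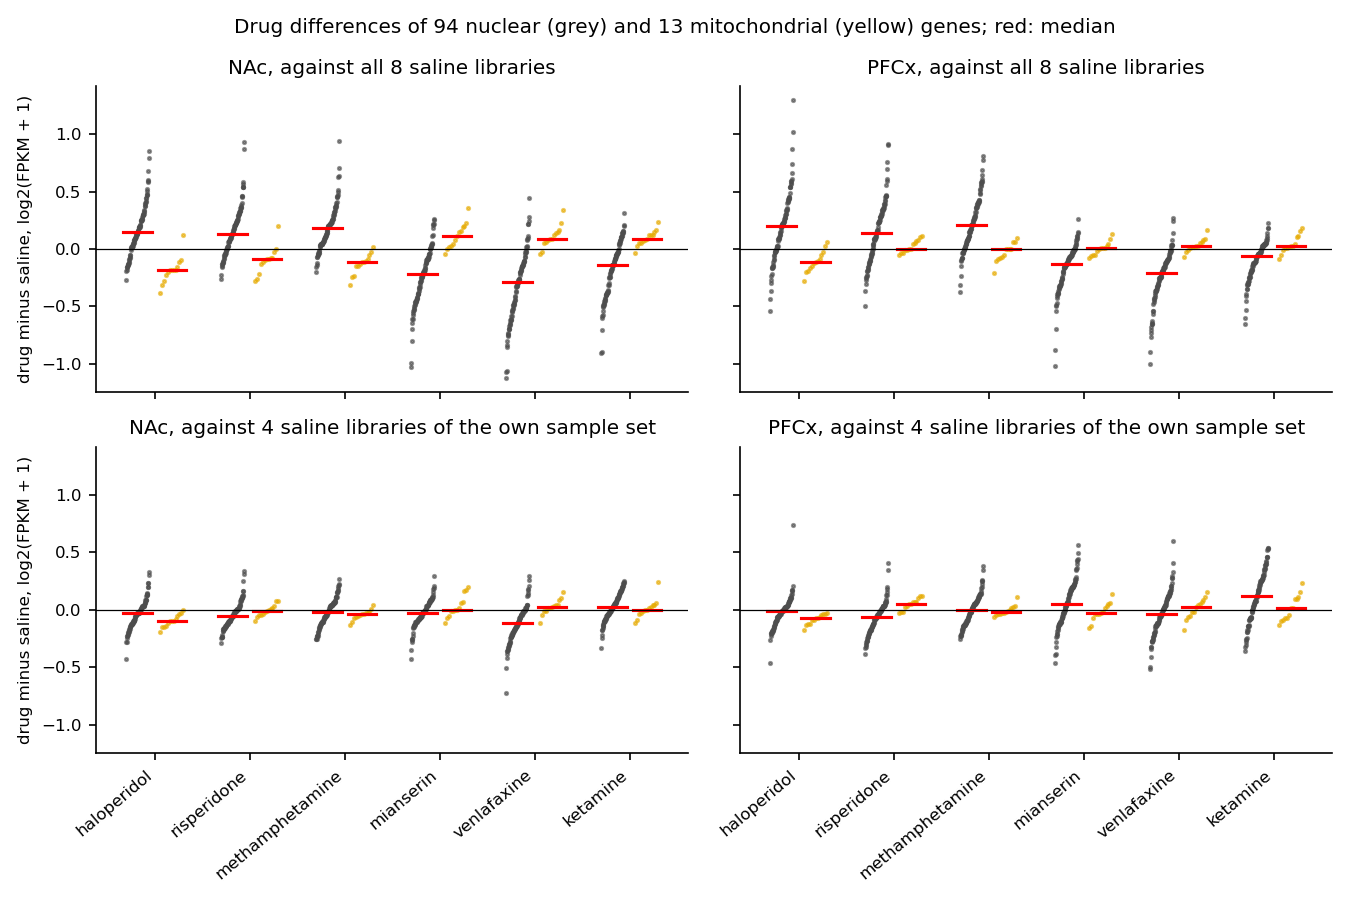
Drug minus saline on the log2(FPKM + 1) scale (y axis) of 94 nuclear (grey) and 13 mitochondrial (yellow) genes for 6 drugs (x axis) in each tissue, against all 8 saline libraries (top) and the 4 of the own sample set (bottom); red lines are medians. The nuclear medians of the top panels, from -0.29 to 0.21, run from -0.12 to 0.12 in the bottom panels; that of ketamine in the PFCx goes from -0.06 to 0.12 and the other 11 lie nearer to 0.

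For the gene with the lowest p under venlafaxine in the NAc, Sdhc, the libraries held 7.82, 9.01, 5.66 and 6.73 FPKM, against 9.52, 7.86, 10.8 and 11.2 in saline of its own set II and 13.8, 12.6, 13.5 and 15.5 in set I. One venlafaxine library lay within the range of set II and all lay below set I. The difference was -0.62 ± 0.13 against all saline (SE, limma adjusted p = 0.0346) and -0.39 ± 0.12 against the own set (adjusted p = 0.682). Leaving out 1 of the 12 libraries moved the venlafaxine count from 10 to between 0 and 35. It was 0 without any 1 of the 4 set I saline libraries or without venlafaxine replicate 3 or 4, 2 without replicate 1, 18 without replicate 2, and 33, 35, 32 and 28 without replicates 1 to 4 of saline set II.

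The gene with the lowest p for mianserin and ketamine in the NAc was Ndufa3. Mianserin libraries held 5.14, 5.43, 4.71 and 6.86 FPKM and ketamine libraries 4.45, 5.97, 7.0 and 6.59. All 8 lay below set I, and all but 1 library of each drug lay below the range of set II (9.85, 7.48, 6.83 and 7.14). The differences were -0.99 ± 0.23 for mianserin (SE, limma adjusted p = 0.0281) and -0.90 ± 0.23 for ketamine (adjusted p = 0.0426) against all saline, and -0.43 (adjusted p = 0.471) and -0.34 (adjusted p = 0.515) against the own set. Both share the same saline libraries. Mianserin also called mt-Nd5, a membrane subunit of complex I, at 137, 142, 150 and 142 FPKM against 133, 120, 134 and 123 in set II and 108 to 122 in set I. All 4 libraries lay above all 8 saline ones, with 0.23 ± 0.05 against all saline (adjusted p = 0.0303) and 0.16 ± 0.06 against the own set (adjusted p = 0.373).

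Haloperidol called Uqcrc1, a core protein of complex III, in the NAc. Its libraries held 58.6, 52.4, 46.4 and 57.5 FPKM, against 46.3, 45, 43.3 and 52.1 in saline of its own set I and 35.7 to 39.3 in set II. The range of set I was overlapped by 1 of the 4 libraries. The difference was 0.34 ± 0.08 (SE, limma adjusted p = 0.0341) and 0.20 ± 0.07 against the own set (adjusted p = 0.544). For risperidone the lowest p in the NAc belonged to Atp5sl (-0.26, adjusted p = 0.0915; own set -0.24, adjusted p = 0.423) and for methamphetamine to Ndufa7, an accessory subunit of complex I (0.62, adjusted p = 0.203; own set 0.15, adjusted p = 0.963). None of these was called with both controls.

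In the PFCx the lowest p against all saline belonged to Ndufaf6 for haloperidol (-0.54, limma adjusted p = 0.121; own set -0.46, adjusted p = 0.709), Atp5s for risperidone (-0.30, adjusted p = 0.0644; own set -0.20, adjusted p = 0.622), Atp5j for methamphetamine (0.26, adjusted p = 0.27; own set 0.14, adjusted p = 0.93), Ndufa3 for mianserin (-1.01, adjusted p = 0.135; own set -0.23, adjusted p = 0.595), Cox7b for venlafaxine (-0.66, adjusted p = 0.338; own set -0.32, adjusted p = 0.575) and Ndufab1, the acyl carrier protein of complex I, for ketamine (-0.46, adjusted p = 0.43; own set -0.36, adjusted p = 0.349). Against the own set 1 member was called, for mianserin and for ketamine, among 2.01% and 1.51% of all genes. This was Ndufc2, a membrane subunit of complex I, named after its values were seen. With the replicate number added as a block, more members were called for mianserin, venlafaxine and ketamine, as given with the processing settings. Mianserin libraries held 11.3, 7.70, 9.90 and 10.6 FPKM and ketamine libraries 9.996, 10.2, 11.1 and 8.82, against 7.18, 6.91, 7.52 and 5.30 in saline set II, and venlafaxine libraries of the same set held 7.16, 8.65, 8.14 and 7.61. All mianserin and ketamine libraries lay above saline set II and below saline set I, whose libraries held 14.1, 13.5, 15.8 and 12.9. The differences were 0.49 ± 0.11 for mianserin (SE, limma adjusted p = 0.0123) and 0.52 ± 0.11 for ketamine (adjusted p = 0.00968) against the own set, and 0.01 and 0.04 against all saline, with the set II saline libraries shared by both.

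Over the 6 drugs at once, the moderated F statistic called 66 members in the NAc at an adjusted p under 0.05, 56 nuclear and 10 mitochondrial, among 36.9% of all genes tested. That share involves the NAc libraries of set I, with fewer transcripts above 0. At a threshold of 0.0001 it called Ndufa3, Ndufa13, Ndufa7, Uqcrq and mt-Nd3, among 0.815% of all genes. In the PFCx it called 19 members, all nuclear, at 0.05 (3.34% of all genes) and 0 at 0.0001 (0.13%). Each drug against the saline of its own set gave 0 members in the NAc (1.63% of all genes), where the lowest adjusted p was 0.212, for Uqcrc1. In the PFCx it gave 1, Ndufc2 (adjusted p = 0.046, among 1.45% of all genes).

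The difference of each drug effect between the NAc and PFCx was called for 0 of the 107 members, for every drug and with either control. Over all genes limma called 0 for risperidone and methamphetamine, 0.0405% for haloperidol, 0.119% for mianserin, 0.0513% for venlafaxine and 0.313% for ketamine against all saline. Against the own set it called 0 for risperidone and methamphetamine, 0.0081% for haloperidol, 0.24% for mianserin, 0.146% for venlafaxine and 2.02% for ketamine. With the 75th percentile or the non-mitochondrial sum equalised, ketamine gave 12 and 3 members against all saline.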

How the data were processed

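RNA was depleted of ribosomal RNA and sequenced on an Ion Proton. The authors aligned reads with TopHat2 2.0.1 and then Tmap to GRCm38 and estimated transcript FPKM with Cufflinks 2.2.1 on Ensembl transcripts. The FPKM and coverage columns were used as deposited, with no read counts, and coverage served only to estimate depth. FPKM was summed per gene. Genes with a mean of at least 0.1 FPKM in either tissue (37034) were fitted with limma 3.58.1 (R 4.3.3) on log2(FPKM + 1), a scale that makes changes of low genes look smaller, and p-values were Benjamini-Hochberg adjusted over all of them, with calls under 0.05. The saline fit had 4 groups of tissue and set, each drug fit 1 tissue with its 8 saline libraries, and the difference between tissues all 64 libraries. Tables were handled with Python 3.11.15, pandas 2.3.3, numpy 2.4.6 and scipy 1.17.1. The fits were tested on simulated data.

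Named were the 13 mitochondrial genes, the called nuclear genes without overlap between tissues (0), the up to 5 nuclear genes with the lowest adjusted p between sets in each tissue, up to 5 genes per drug called with both controls or else the gene with the lowest p, members called between tissues for a drug, and a panel of isoform pairs and complex II. Members and lists were chosen with earlier results of these data known. Alternatives were the pseudocount, filters, a mean-variance trend, scalings, the most abundant isoform, saline subsets, a replicate block and leaving out each library. Adding nuclear copies and scaling over a fixed set of genes were chosen after seeing the data.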

Additional observations from a re-analysis of the deposited data

Results flagged for a closer look

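In 6 of 108 groups of 4 libraries 1 library stood apart from the other 3 by more than the critical gap, where chance gives about 1 in 20 groups. These were a haloperidol library (5518 FPKM) and a methamphetamine library (5904) in the mitochondrial sums of the PFCx, a methamphetamine library in the nuclear sum of the NAc (2322), Ndufa3 in saline set I of the PFCx (17.9), Uqcrq in saline set I of the NAc (32.5) and mt-Nd3 in saline set II of the NAc (291).

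The difference between saline sets was not the same in both tissues for 4 of the 107 genes, by the interaction term of limma, which called 3.77% of all genes. It was larger in the NAc than in the PFCx by 0.68 on the log2(FPKM + 1) scale for mt-Co3 (adjusted p = 0.00232), by 0.53 for Cox7b2 (adjusted p = 0.048), which is listed at 0 in all 4 NAc libraries of set I, and by 0.30 for mt-Co1 (adjusted p = 0.0497). For Atp5g1 the NAc minus PFCx value was -0.62 (adjusted p = 0.0366).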

How the results depend on the processing

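Adding the nuclear copies or leaving out transcripts without an OK status changed no direction or call of a named gene. The scaling by the 75th percentile over genes above 0 moved values by its construction, since fewer genes lie above 0 in NAc libraries of set I. It called 71 nuclear genes between tissues (24 as reported), and 13 mitochondrial genes between sets in the NAc (3). It gave NAc over PFCx ratios of 0.949 for the mitochondrial and 0.742 for the nuclear sum, and set II over set I ratios of 2.45 and 1.54 in the NAc and 1.03 for the mitochondrial sum in the PFCx. It turned the tissue difference to -0.23 (mt-Nd1), -0.085 (mt-Nd2), -0.30 (mt-Nd3), -0.028 (mt-Nd4), -0.28 (mt-Nd5), -0.29 (mt-Nd6), -0.29 (mt-Co1), -0.26 (mt-Co2), -0.17 (mt-Co3), -0.12 (mt-Atp6) and -0.31 (mt-Atp8), the NAc set difference to 0.80 (mt-Nd6) and 0.39 (Ndufb10) and Uqcrc1 under haloperidol to -0.19. In the NAc it called 0 members for haloperidol (1), 29 for mianserin (2), 37 for venlafaxine (10) and 25 for ketamine (1), and 12 for the ketamine difference between tissues (0). For the other settings the cause was not tested. The non-mitochondrial sum gave 41 nuclear genes between tissues, ratios of 1.47 and 1.24 between tissues, 0 mitochondrial genes between PFCx sets (1), 0, 0 and 25 members for haloperidol, venlafaxine and ketamine in the NAc, 10 for the PFCx F statistic (19) and 3 for the ketamine difference. The fixed-gene percentile gave 5 and 0 mitochondrial genes between NAc and PFCx sets, ratios of 1.26 and 1.02 for the mitochondrial sums of the sets and 1.07 for the nuclear sum of the tissues, and 0, 1 and 2 members for haloperidol, risperidone and ketamine in the NAc. A mean-variance trend gave 5 mitochondrial genes between tissues (10), and 1 and 0 between NAc and PFCx sets. Set I alone gave 5 mitochondrial and 9 nuclear genes between tissues with mt-Co3 at -0.068, set II alone 15 nuclear genes, and no set term 12. No filter gave 5 mitochondrial genes between NAc sets. A pseudocount of 0.1 gave 0 mitochondrial genes between PFCx sets, 0 for haloperidol and 1 for mianserin in the NAc, and 11 for the PFCx F statistic. A minimum of 1 FPKM gave 2 mitochondrial genes between PFCx sets, 2 for haloperidol and 1 for venlafaxine in the NAc and 1 for risperidone in the PFCx. The most abundant isoform gave 26 nuclear genes between NAc sets (43), 0, 1, 5 and 0 for haloperidol, mianserin, venlafaxine and ketamine in the NAc and 9 for the PFCx F statistic.

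Against saline set I alone haloperidol called 0, mianserin 60, venlafaxine 68 and ketamine 50 in the NAc, mianserin 33, venlafaxine 39 and ketamine 25 in the PFCx, and the PFCx F statistic 42. Against set II alone haloperidol called 59, risperidone 54, methamphetamine 54, mianserin 0, venlafaxine 0 and ketamine 0 in the NAc, 48, 44, 43, 1 and 1 for haloperidol, risperidone, methamphetamine, mianserin and ketamine in the PFCx, and the PFCx F statistic 47. The own set gave 0 for haloperidol, mianserin, venlafaxine, ketamine and the F statistic in the NAc, and 1 for mianserin, 1 for ketamine and 1 for the F statistic in the PFCx. Replicate numbers were not taken to pair the samples. Libraries of the same number and treatment in both tissues correlated with a mean r of 0.0139 and 8 of 32 pairs over 0.1, and libraries of the same number, the same tissue and different treatments with a mean r of 0.0994 and 110 of 224 over 0.1 (different numbers -0.0313, 128 of 672). With the number as a replicate block venlafaxine gave 5 and ketamine 0 in the NAc and mianserin 1 in the PFCx, tissue 11 mitochondrial and 23 nuclear genes, the sets 39 and 45 nuclear genes in the NAc and PFCx and the F statistic 68 and 23. The block with the own set gave 0 for these 4 drugs and the F statistic in the NAc, and 5, 1 and 6 for mianserin, venlafaxine and ketamine and 2 for the F statistic in the PFCx.

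Leaving out 1 library gave 0 to 3 members for haloperidol in the NAc, 0 without haloperidol 2 or 4 or any of saline set II, and 2, 3 and 2 without saline I 1, 2 and 3. Mianserin gave 0 to 12, with 1, 0 and 1 without mianserin 1, 3 and 4, 10, 12, 11 and 7 without saline II 1 to 4 and 0 without any of saline I. Ketamine gave 0 to 8, with 0 without any of its libraries or of saline I and 6, 8 and 5 without saline II 1, 2 and 3, and venlafaxine 0 to 35. Risperidone gave 0 to 1 (1 without risperidone 3). In the PFCx haloperidol gave 0 to 1 (1 without saline I 2), risperidone 0 to 3 (3, 2 and 2 without saline I 2, 3 and 4), mianserin 0 to 1 (1 without saline II 4) and the F statistic 10 to 34, with 34 without saline II 4 and 10 to 12 without haloperidol 1 or 2, methamphetamine 1 or 2, mianserin 2, risperidone 1 or 2, or venlafaxine 2, 3 or 4. Nuclear genes between NAc sets numbered 27 to 39, with 27 without saline I 4 and 28 without saline II 1. The mitochondrial count between PFCx sets was 0 to 1, with 0 without saline I or II 1, 3 or 4. Without counts, depth limits low genes by an amount that is unknown.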
